A study of Mus musculus with 12 samples.

Results

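The comparison set pancreas RNA of mice labelled Atf3-/- against that of wild-type mice, both during cerulein-induced pancreatitis. Its members are the 6 cerulein libraries of the 12 in the series: C2, C3 and L4, labelled knockout, against O1, O3 and N3, wild type. It was made over all genes, with C3 kept and with C3 left out. The wild-type mice were C57Bl6 controls without a transgene or other allele named in the labels. The labelled knockout mice carried Atf3-/- on a congenic C57Bl6 background. Every mouse was 2 to 4 months old, and whole pancreas was taken 4 h into treatment. Cerulein was injected 4 times over 4 h at 50 ug/kg, and saline was injected on the same schedule. The 6 saline libraries, W1, K5 and R3 for wild type and S1, K4 and Q1 for labelled knockout, set the spread and the untreated level. Each group held 3 animals. The labels do not give sex, litter, day of sacrifice or which part of Atf3 was deleted.

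Cerulein is an analogue of the gut hormone cholecystokinin. At doses above those that drive secretion it makes acinar cells, which produce the digestive enzymes, retain and activate their enzymes, and the gland swells and inflames within hours. ATF3 is a stress-induced transcription factor of the basic leucine zipper class that binds ATF/CRE and AP-1 sequences and can repress or activate its targets. Its own gene is a target of ATF4, the factor that the integrated stress response brings into play.

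Atf3 counts were not lower in the libraries labelled knockout, which is why that term is used here. In cerulein the level of Atf3 was 775 (O1), 599 (O3) and 394 CPM (N3) in wild type. CPM are counts scaled to a normalized library total of 1e+06. It was 1375 CPM in C2, 20.7 CPM in C3 and 1636 CPM in L4. C2 and L4 thus lay above all wild-type cerulein libraries, and C3 lay below them. In saline the labelled knockout level was 23.1 (S1), 7.44 (K4) and 13.5 CPM (Q1), and C3 fell among these. Counts are for the whole gene and cannot show whether the RNA encodes a working protein.

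C3 stood apart from the other cerulein libraries. Of 2744 genes with higher levels in the other 5 cerulein libraries than in all 6 saline libraries, C3 was at or below the saline range for 76.5%. Of 2065 genes with lower levels there, C3 was at or above the saline range for 85.0%. C3 also held 0 counts of the Y-linked genes Ddx3y, Kdm5d, Eif2s3y and Uty and 16 counts of Xist, while each other library held Y-linked counts or at least 2525 counts of Xist. Depth was 18292997 to 32158629 counts in a library, and C3 had 23493549. Markers of other cell types were uneven too: N3 held 604.9 CPM of lymphocyte markers and 683.2 CPM of adipocyte markers, and L4 held 12501 CPM of islet markers. Results below are therefore given first without C3, with C2 and L4 (n = 2) against O1, O3 and N3 (n = 3). Values with C3 follow for the lists and for the genes that the results turn on, and the plot of fold changes shows both for 30 genes.

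No gene passed the test between the genotype labels during pancreatitis. With C3 left out, edgeR called 0 of 14733 genes (0%) at an adjusted p under 0.05, and the lowest adjusted p by edgeR was 0.733. At an unadjusted p under 0.05 there were 747 genes (5.07%), of which 527 (3.58%) were higher and 220 (1.49%) lower in the labelled knockout. With C3 kept, edgeR again called 0 of 14329 genes, with a lowest adjusted p of 0.235, and 1146 genes (8%) had an unadjusted p under 0.05, 791 higher (5.52%) and 355 lower (2.48%). An equal spread of p-values would put 5% of genes there. DESeq2 called 14 genes without C3 (0.115% of those it tested, 4 higher and 10 lower) and 11 with C3 (0.077%, 7 higher and 4 lower). The saline comparison, by the same edgeR fit, had 0 calls and 132 genes (0.896%) at an unadjusted p under 0.05. The median 95% interval of a gene reached 0.633 to each side of its log2 fold change without C3 and 0.683 with it. A typical gene thus needed a difference of about that size for an unadjusted p under 0.05. To pass the adjusted test it needed a larger one.

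**Figure D1:**
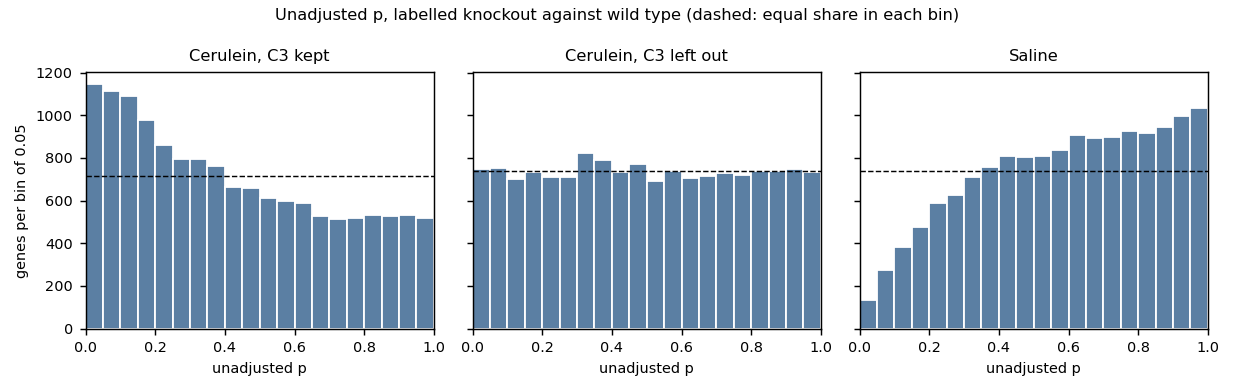
Number of genes in each bin of unadjusted p (20 bins of width 0.05) for the genotype comparison in cerulein with C3 kept, in cerulein with C3 left out, and in saline. With C3 left out the bins are nearly level (747 genes in the lowest), with C3 kept the lowest bin holds 1146 genes, and in saline it holds 132.

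Leaving out C3 changed which genes had low p-values. The fits share 5 of the 6 cerulein libraries, so their lists are not independent. Of the genes tested in both, 399 had an unadjusted p under 0.05 in both, which is 34.8% of the list with C3 kept and 56.0% of the list without it. Of these 399 genes, 398 had the same sign. The genes described below passed no adjusted test by edgeR. They are named by a rule of low p-values within lists of injury genes, or as DESeq2 calls, and their p-values are descriptive. Groups of 2 and 3 libraries also failed to overlap in genes with high p-values. Examples are Ppp2r5a (edgeR unadjusted p = 0.453) and Batf3 (edgeR unadjusted p = 0.478). The share of such genes over all genes is not given here, so a lack of overlap below is descriptive too. The values are CPM for a library and log2 fold changes, labelled knockout over wild type, for a difference.

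Genes of the integrated stress response were mostly higher on average in C2 and L4 than in the wild-type cerulein libraries, where N3 held the lowest list level. This pathway slows translation and, through ATF4, raises genes of amino acid supply and cell death. Of 26 members, 6 had an unadjusted p under 0.05 and all 6 were higher, beside 3.58% of all genes, and 23 of the 26 had a positive difference. The list's median was 0.31, beside 0.01 over all genes tested, and it was 0.17 without N3. In saline, which shares no library with this contrast, the list's median was 0.18, with 21 of 26 members positive. The list's mean log2 CPM was 7.13 (O1), 6.93 (O3) and 6.31 (N3), against 7.35 in C2 and 7.22 in L4. In summed CPM, L4 (10966) lay below O1 (12413) and O3 (12082) and above N3 (6792), and C2 (13955) lay above all 3. The list level in C3 lay within the saline range, and with C3 kept the median was -0.04 and no member reached an unadjusted p under 0.05. The count also depended on single libraries: it was 2 without C2 and 3 without N3, and 15 of 26 members stayed positive without N3.

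Ddit3, which encodes the death-promoting factor CHOP (ENSMUSG00000025408, GRCm38 chromosome 10, 127290774 to 127296288, plus strand), was at 7.37 (O1), 3.58 (O3) and 2.90 CPM (N3) in wild type. It was at 15.6 CPM in C2 and 15.5 CPM in L4, above all 3, and at 1.64 CPM in C3. The difference without C3 was 1.75 ± 0.37 (SE), with a 95% interval of 0.93 to 2.57, and with C3 kept it was 1.24 ± 0.65. By DESeq2 without C3 the adjusted p was 0.032, while edgeR's adjusted p was 0.818. Ddit3 shares bases with Mars on the opposite strand and Gm4189 at its start, and with a second gene model of its own name, so its counts may be incomplete. In saline the difference in Ddit3 was -0.08 (edgeR unadjusted p = 0.838).

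Fgf21, a stress hormone of acinar cells that promotes secretion, was at 128, 76.4 and 69.4 CPM in O1, O3 and N3. In C2 it was at 293 CPM and in L4 at 200 CPM, above the wild-type range, and in C3 at 1.97 CPM. The difference was 1.44 ± 0.50 without C3 and 0.86 ± 1.05 with it. Sesn2, which restrains growth signalling under stress, was at 128, 126 and 75.3 CPM in wild type against 169 and 225 CPM in C2 and L4 (0.84 ± 0.25). With C3, at 2.49 CPM, its difference was 0.27 ± 0.92. The lipoprotein receptor gene Vldlr (0.86 ± 0.30), the stress cytokine gene Gdf15 (1.10 ± 0.47) and Psph of serine synthesis (0.45 ± 0.17) were likewise above the wild-type range in both C2 and L4 and below it in C3.

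**Figure D2:**
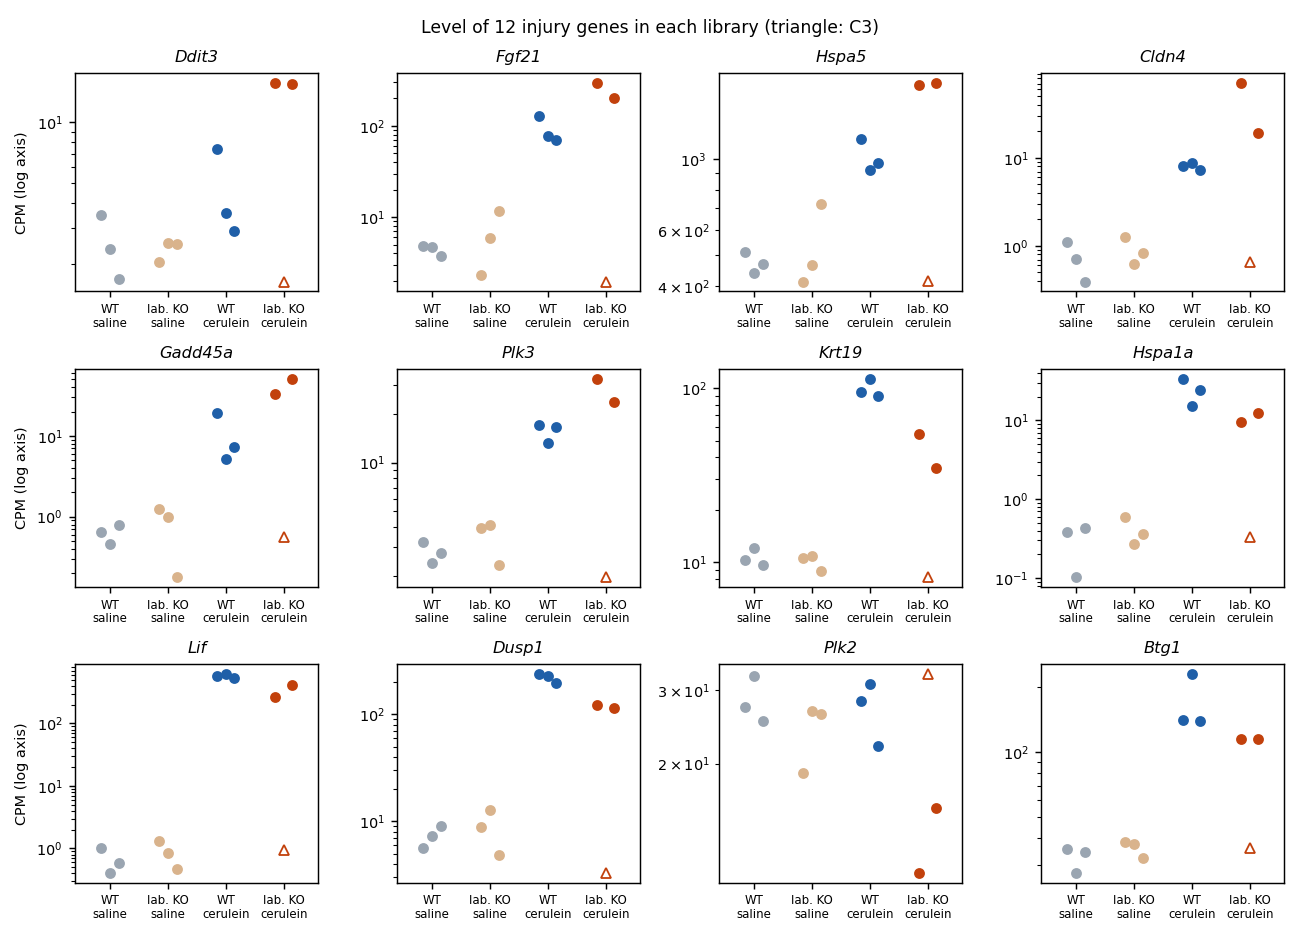
Level (CPM, log axis) of 12 injury genes in each of the 12 libraries, by group, 1 point per library, with C3 as an open triangle. C2 and L4 lie above the 3 wild-type cerulein libraries for Ddit3, Fgf21, Hspa5, Cldn4, Gadd45a and Plk3 and below them for the other 6 genes, while C3 lies near the saline libraries for all 12.

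Chaperones of the endoplasmic reticulum, which fold secretory proteins, gave a smaller difference in the same direction. Of 25 members, 4 had an unadjusted p under 0.05 without C3, all higher, beside 3.58% of all genes, and 20 were positive, with a median of 0.17. Hspa5, the main chaperone of that compartment (BiP), was at 1150, 925 and 968 CPM in O1, O3 and N3 and at 1697 and 1720 CPM in C2 and L4. The 2 groups did not overlap, and the difference was 0.75 ± 0.23 (edgeR unadjusted p = 0.0084). C3 was at 416 CPM, in the saline range, and the difference with it was 0.33 ± 0.43. Herpud1 (0.76 ± 0.34) and Sel1l (0.60 ± 0.24), both of the degradation machinery for misfolded proteins, and the cochaperone gene Dnajc3 (0.38 ± 0.15) were also above the wild-type range in C2 and L4. Without L4 the list's median was -0.07 and 2 members had an unadjusted p under 0.05. With C3 kept, 5 members were higher at that level, beside 5.52% of all genes, and Sel1l's difference was 2.22 ± 0.67. Its level was 73.4, 54.9 and 77.0 CPM in wild-type cerulein libraries, 98.6 and 109 CPM in C2 and L4, and 746 CPM in C3, so C3 sets that size.

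Heat shock genes of the cytosol went the other way. Of 16 members, 4 were lower in C2 and L4 at an unadjusted p under 0.05, beside 1.49% of all genes, and none was higher. The median was -0.31, and 13 of 16 were negative. Hspa1a, an inducible HSP70 gene, was at 33.8, 15.3 and 24.5 CPM in wild type and at 9.52 and 12.4 CPM in C2 and L4, below all 3. The difference was -1.16 ± 0.38, and Hspa1b, its near-identical neighbour whose reads cannot be separated with certainty, gave -0.88 ± 0.29. Dnajb1, their cochaperone, gave -0.41 ± 0.16, and -0.21 without C2. Cryab, a small heat shock protein gene that overlaps Hspb2, was at 10.9, 8.76 and 14.4 CPM against 6.91 and 6.12 CPM (-0.81 ± 0.23). With C3 kept the median was -0.52 and 15 of 16 members were negative, but C3 held saline levels (Hspa1a 0.328 CPM). The number lower at that p was 1 without C2 and 1 without O1.

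Immediate early genes, the first transcription factors and feedback phosphatases induced by a stimulus, had no common direction without C3. Of 31 tested members, 19 were positive, and the median was 0.08. At an unadjusted p under 0.05, 1 was higher and 1 lower, beside 3.58% and 1.49% of all genes. Dusp1, a phosphatase gene that shuts off stress kinases, was at 237, 227 and 195 CPM in O1, O3 and N3 and at 123 and 116 CPM in C2 and L4 (-0.88 ± 0.33), and the groups did not overlap. Dusp4, a related phosphatase gene, was high in 1 library alone: 10.5 CPM in L4 against 0.491 CPM in C2 and 0.921 to 1.79 CPM in wild type. Its difference of 2.17 ± 0.92 became -1.31 without L4. With C3 kept, 27 of the 31 members were negative and the median was -0.43. C3 had 3.33 CPM of Dusp1, below every saline library.

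The plot of list levels by library sets these groups side by side.

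**Figure D3:**
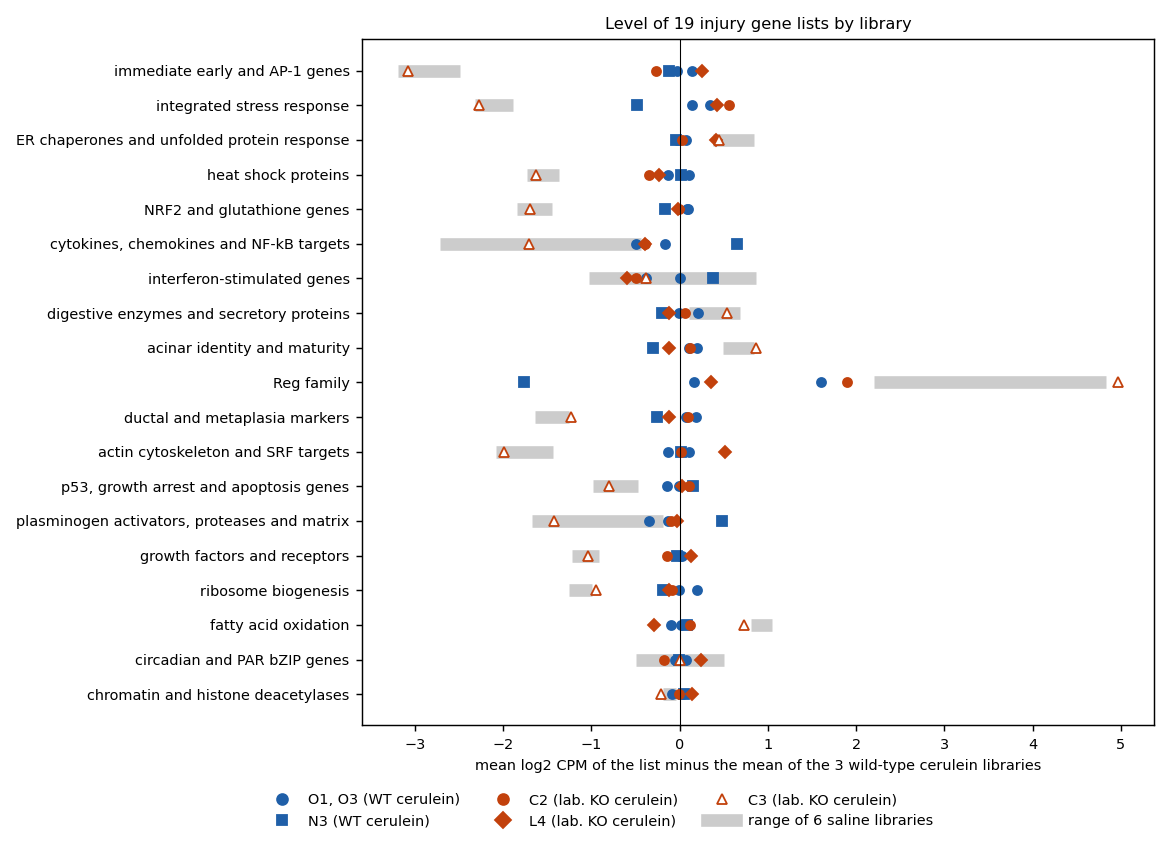
Mean log2 CPM of each of 19 injury gene lists in the cerulein libraries, as the difference from the mean of the 3 wild-type cerulein libraries, with the range of the 6 saline libraries as a grey bar. C3 (open triangle) lies in or near the saline range for most lists. N3 (square) lies apart from O1 and O3 for cytokines, Reg genes and the integrated stress response, among others. C2 and L4 lie close to the wild-type libraries for most lists.

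Differences of cytokine and interferon genes were nearly all negative, and for the cytokine list both their size and their common direction rested on N3. Of the members of both lists, 1 had an unadjusted p under 0.05 without C3, beside 5.07% of all genes. Of 34 cytokine, chemokine and NF-kB genes, 33 were negative with a median of -0.50, and of 24 interferon-stimulated genes all were negative with a median of -0.70. Without N3 the medians were -0.03 and -0.14, and 18 of 34 and 20 of 24 members were negative. N3 was the library rich in immune and fat markers: its summed lymphocyte markers were 604.9 CPM against 39.6 (O1) and 9.68 CPM (O3), and its neutrophil markers 149 CPM against 29.5 and 19.7 CPM. C2 and L4 held 2.68 and 31.4 CPM of lymphocyte markers and 53.4 and 26.6 CPM of neutrophil markers. In bulk tissue fewer cells of a type and less RNA per cell cannot be told apart, and the part of these cells in the result was not tested beyond leaving out N3. In saline, which shares no library with this contrast, the interferon list had a median of 0.76, with all 24 members positive.

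Lif, a cytokine of the interleukin-6 family, was lower with N3 left out too. Its level was 566 (O1), 614 (O3) and 534 CPM (N3) in wild type, 261 CPM in C2 and 412 CPM in L4. The 2 groups did not overlap, and the difference was -0.76 ± 0.33 (edgeR unadjusted p = 0.0422). Leaving out single libraries gave -1.13 (without L4) to -0.48 (without C2). Without O1, and likewise without O3, its edgeR unadjusted p was not under 0.05. C3 was at 0.938 CPM, within the saline range, and the difference with it was -1.35 ± 1.14. No other member of either list reached an unadjusted p under 0.05 without C3. Among the lowest p-values were those of Nfkbiz, a nuclear NF-kB regulator (-0.59 ± 0.33), and Ifit2, an interferon-induced RNA-binding protein gene (-1.24 ± 0.65).

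**Figure D4:**
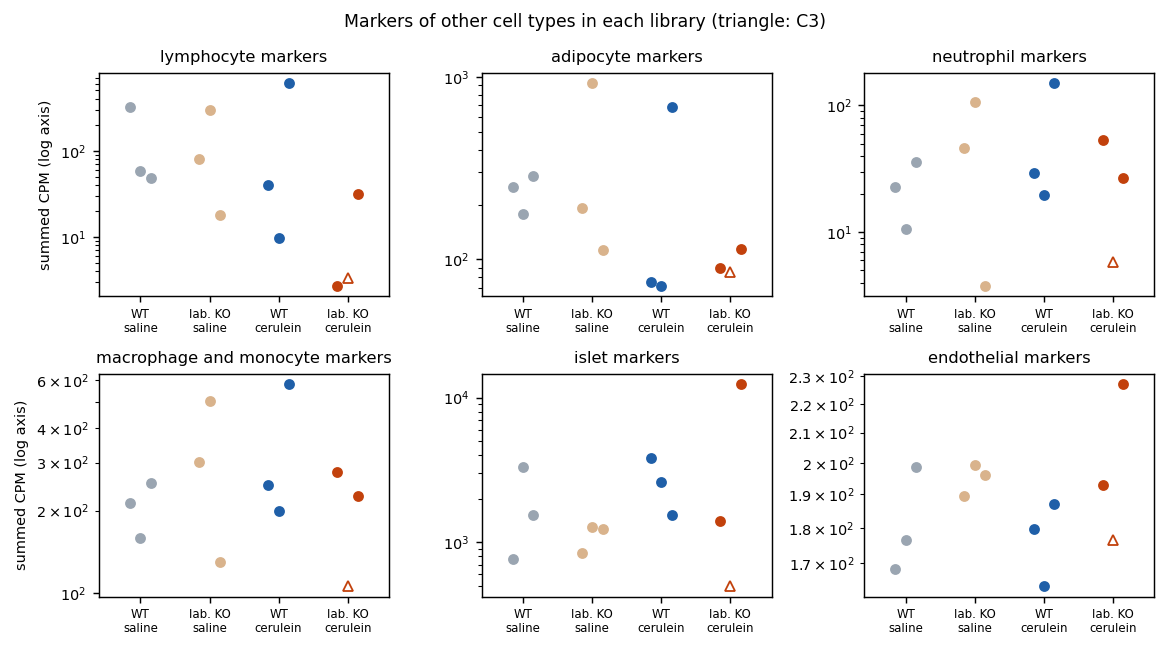
Summed CPM (log axis) of the markers of 6 other cell types in each library, by group, with C3 as an open triangle. N3 is the highest wild-type cerulein library for lymphocyte, adipocyte, neutrophil and macrophage markers (604.9, 683.2, 149 and 583 CPM), and L4 is the highest of all 12 libraries for islet markers (12501 CPM).

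Ductal and metaplasia markers, genes of the duct programme that acinar cells switch on when injured, split into both directions. Of 22 tested members, 2 were higher and 2 lower at an unadjusted p under 0.05 without C3, beside 3.58% and 1.49% of all genes. The median was -0.01. Krt19, the duct keratin most used as a marker (ENSMUSG00000020911, GRCm38 chromosome 11, 100140810 to 100148665, minus strand), was at 95.3 (O1), 113 (O3) and 90.8 CPM (N3) in wild type. It was at 54.6 CPM in C2 and 35.0 CPM in L4, below all 3 wild-type libraries but above every saline library, where it was 8.88 to 12.1 CPM. The difference was -1.16 ± 0.21, with a 95% interval of -1.62 to -0.69, and DESeq2 called it (adjusted p = 0.00111) where edgeR did not (adjusted p = 0.818). With C3, at 8.21 CPM, it was -1.61 ± 0.48.

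Cldn4, a tight junction gene (ENSMUSG00000047501, GRCm38 chromosome 5, 134945119 to 134946934, minus strand), was at 7.99, 8.86 and 7.22 CPM in O1, O3 and N3. It was at 70.7 CPM in C2 and 19.4 CPM in L4, both above the wild-type range, and 0.657 CPM in C3, within the saline range. The difference was 2.49 ± 0.47 without C3, a DESeq2 call with an adjusted p of 0.00245. It was 1.27 without C2 and 1.92 ± 0.97 with C3 kept. Sox9, a transcription factor gene of ducts and progenitors, was at 90.0, 103 and 51.3 CPM in wild type against 17.3 CPM in C2 and 54.8 CPM in L4, so L4 lay above N3. Its difference was -1.17 ± 0.44. The keratin gene Krt7 was higher, at 15.2 and 23.5 CPM against 14.3, 12.8 and 6.97 CPM (0.77 ± 0.29). Leaving out single libraries gave -2.23 (without L4) to -0.58 (without C2) for Sox9 and 0.43 (without L4) to 1.04 (without C2) for Krt7. The differences of Krt19 and Sox9 were thus negative and those of Cldn4 and Krt7 positive within 1 list, and the groups overlapped for Sox9.

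Growth arrest and apoptosis genes of the p53 network held 7 members at an unadjusted p under 0.05 out of 26, beside 5.07% of all genes. Of these, 5 were higher and 2 lower, beside 3.58% and 1.49%, and the list's median was 0.03. Gadd45a, which arrests the cell cycle after damage, was at 19.3, 5.23 and 7.22 CPM in wild type and 33.1 and 51.2 CPM in C2 and L4, and the groups did not overlap (1.99 ± 0.56). Plk3, a stress-responsive kinase gene that overlaps Tctex1d4, was at 17.1, 13.2 and 16.5 CPM against 32.9 and 23.5 CPM (0.85 ± 0.24). Gadd45g (0.65 ± 0.27) and the death genes Bbc3 (0.96 ± 0.42) and Bik (0.86 ± 0.38) were also higher. Plk2, a related kinase gene, was lower: 28.3, 31.0 and 22.0 CPM in wild type against 10.99 and 15.7 CPM in C2 and L4 (-1.02 ± 0.23, DESeq2 adjusted p = 0.049). Plk2 in C3 was 32.7 CPM, above all 3 wild-type cerulein libraries, and the difference with C3 was -0.46 ± 0.34. Btg1, an antiproliferative gene, was at 141, 229 and 140 CPM against 115 and 116 CPM (-0.56 ± 0.23), and its difference was -0.28 without O3. That of Bik was 0.54 without C2. When single libraries were left out, 4 to 7 members had such a p, except 2 without C2.

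The promoter windows of 4 of these genes are shown because they hold a sequence that ATF3 and related factors bind. The windows run from 250 bases before the start to 50 after it, from RefSeq on GRCm38.p6, and letters in capitals mark the match. Both strands were searched for the ATF/CRE octamer TGACGTCA, which reads the same on either strand, and the AP-1 heptamer TGAGTCA, whose reverse complement is TGACTCA. The motifs cannot match the same bases in full.
Dusp1, chr17:26508423-26508722, minus strand, ATF/CRE: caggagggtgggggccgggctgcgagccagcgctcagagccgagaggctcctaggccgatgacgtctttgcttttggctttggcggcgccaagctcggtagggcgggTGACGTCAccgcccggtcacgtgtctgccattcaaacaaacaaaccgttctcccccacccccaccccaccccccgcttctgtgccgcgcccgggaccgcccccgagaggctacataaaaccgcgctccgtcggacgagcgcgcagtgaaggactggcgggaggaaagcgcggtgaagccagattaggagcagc
Plk2, chr13:110394794-110395093, plus strand, ATF/CRE: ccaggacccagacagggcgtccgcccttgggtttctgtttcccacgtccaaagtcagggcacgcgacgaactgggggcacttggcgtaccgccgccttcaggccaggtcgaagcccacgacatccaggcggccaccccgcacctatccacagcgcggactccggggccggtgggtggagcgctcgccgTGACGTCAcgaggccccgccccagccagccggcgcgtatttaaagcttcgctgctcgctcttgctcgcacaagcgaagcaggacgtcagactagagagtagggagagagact
Ddit3, chr10:127290543-127290842, plus strand, AP-1: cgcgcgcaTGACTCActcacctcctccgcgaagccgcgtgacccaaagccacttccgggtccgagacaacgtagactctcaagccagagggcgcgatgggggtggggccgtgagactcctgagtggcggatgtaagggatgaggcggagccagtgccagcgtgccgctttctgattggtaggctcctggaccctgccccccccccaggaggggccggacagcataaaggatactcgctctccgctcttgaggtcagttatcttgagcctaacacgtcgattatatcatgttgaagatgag
Cldn4, chr5:134946885-134947184, minus strand, AP-1: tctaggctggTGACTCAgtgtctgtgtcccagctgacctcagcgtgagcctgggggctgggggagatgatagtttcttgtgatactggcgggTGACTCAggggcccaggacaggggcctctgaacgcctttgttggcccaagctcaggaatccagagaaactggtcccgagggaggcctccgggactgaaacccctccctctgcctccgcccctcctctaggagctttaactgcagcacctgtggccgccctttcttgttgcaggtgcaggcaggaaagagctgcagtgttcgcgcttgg
The ATF/CRE octamer was in 1.79% of all 32851 windows and the AP-1 heptamer in 5.20%. These shares are per window. The genes below were counted once each, with a match in any of their windows, so the counts are not directly comparable. Of the genes followed here with an unadjusted p under 0.05 without C3, 29 of 34 higher genes had a window, of which 2 held the octamer (Chgb and Creb5) and 4 the heptamer (Cldn4, Creb5, Ddit3 and Hspa5). Of the lower genes, 16 of 24 had a window, of which 2 held the octamer (Dusp1 and Plk2) and 3 the heptamer (Cxcl9, Hamp2 and Lif). The genes were chosen for their p-values, and a match describes the letters only.

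Genes of the cytoskeleton, growth factors and tissue remodelling gave few differences. Among 24 actin and SRF target genes, 1 was higher at an unadjusted p under 0.05, beside 3.58% of all genes, and 0 without O3. This was Tagln2, an actin-bundling gene, at 219, 191 and 141 CPM against 434 and 235 CPM in C2 and L4 (0.87 ± 0.34). The list's median was 0.23, and without L4 it was 0.00. Vil1, which encodes the microvillus protein villin, gave 1.43 ± 0.71 from 13.3 CPM in L4, with C2 at 3.97 CPM inside the wild-type range, and 0.31 without L4. Among 22 growth factor and receptor genes, 1 was lower at an unadjusted p under 0.05, beside 1.49% of all genes. This was Btc, an EGF receptor ligand, at 39.6, 78.8 and 29.3 CPM in wild type against 11.6 and 32.1 CPM, so the groups overlapped (-1.17 ± 0.47). Without C2 the difference was 0.35 for Tagln2 and -0.63 for Btc. Lifr, the receptor of LIF, was at 199 CPM in C2 but 84.0 CPM in L4, against 87.4 to 96.7 CPM in wild type. None of 24 plasminogen, protease and matrix genes had an unadjusted p under 0.05. Their lowest p-values were those of the urokinase gene Plau (-0.70 ± 0.42) and the protease inhibitor gene Timp3 (0.30 ± 0.23).

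Digestive enzymes, the bulk of the acinar cell's RNA, did not show a common difference. The 30 genes summed to 509770 (O1), 572370 (O3) and 449370 CPM (N3) in wild type, and to 533270 CPM in C2 and 467680 CPM in L4, within that range. C3 stood at 752420 CPM, within the saline range. The median difference was -0.02 without C3 and 0.23 with it. Without C3, 1 of the 30 was higher and 1 lower at an unadjusted p under 0.05, beside 3.58% and 1.49% of all genes. Dmbt1, a secreted scavenger protein gene that overlaps Fgfr2, was at 4911, 5369 and 4480 CPM in wild type against 9500 and 6089 CPM (0.66 ± 0.26), and without C2 the difference was 0.30. Clps, the cofactor of pancreatic lipase, was at 11208, 13144 and 9925 CPM against 7388 and 7926 CPM (-0.58 ± 0.25), and C3 at 19774 CPM. No acinar identity gene of 16 had an unadjusted p under 0.05 without C3. The transcription factor gene Gata6 had the lowest (-0.46 ± 0.24).

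Reg genes, secreted proteins that the injured pancreas can make in large amounts, differed mostly through C3. Here their level was lower in cerulein than in saline. The list's mean log2 CPM was 8.63 to 11.01 in wild-type saline and 8.53 to 11.15 in labelled knockout saline libraries. It was 4.56 to 7.93 in wild-type cerulein libraries, 8.23 in C2, 6.68 in L4 and 11.30 in C3. A higher level in cerulein was thus one nearer to saline. Without C3 all 6 tested members were positive, with a median of 0.58 and none at an unadjusted p under 0.05, and without C2 as well the median was -0.03. With C3 kept the median was 2.80, and 4 of 6 were higher at an unadjusted p under 0.05, beside 5.52% of all genes. Reg3b was at 131, 375 and 50.3 CPM in O1, O3 and N3, 1365 CPM in C2, 128 CPM in L4 and 4579 CPM in C3. L4 lay inside the wild-type range, and C3 above it, near the highest saline library (4514 CPM). The difference was 2.01 ± 1.16 without C3 and 3.45 ± 1.23 with it. Reg3d gave 0.71 ± 0.59 and 2.16 ± 0.78. These genes are close paralogs, and reads that match several of them may have been split or dropped.

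The list of fatty acid oxidation genes had a median of -0.06 without C3 and 0.41 with it. Without C3, 1 of its 18 tested members had an unadjusted p under 0.05 and was lower, beside 1.49% of all genes. With C3 kept, 4 of 18 had such a p and were higher, beside 5.52%. C3 held 886 CPM of the list in sum, within the saline range, against 278 to 356 CPM in wild type and 231 to 376 CPM in C2 and L4. Cpt2, a mitochondrial fatty acid carrier enzyme gene of that list, gave 0.30 ± 0.18 without C3. Ribosome biogenesis genes were negative in 19 of 21 cases with a median of -0.12, which was -0.01 without O3, and none had an unadjusted p under 0.05. The nucleolar genes Npm1 (-0.32 ± 0.18) and Nop56 (-0.24 ± 0.16) had the lowest.

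The remaining lists held little. Of 19 circadian and PAR bZIP genes, 1 was lower at an unadjusted p under 0.05, beside 1.49% of all genes. This was Cry1, a repressor of the clock, at 15.5, 19.2 and 9.52 CPM in wild type against 9.71 and 9.01 CPM (-0.65 ± 0.28, and -0.42 without O3). Ciart, a clock repressor too, gave 0.99 ± 0.88. Among 16 NRF2 and glutathione genes none had an unadjusted p under 0.05. Slc7a11, the cystine transporter gene, was at 118, 85.3 and 75.9 CPM against 120 and 160 CPM (0.59 ± 0.33), and G6pdx, of the pentose phosphate pathway, gave -0.46 ± 0.45. Of 16 chromatin genes the deacetylase genes Sirt1 (-0.41 ± 0.22) and Hdac6 (0.38 ± 0.21) had the lowest p-values, and none was under 0.05.

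**Figure D5:**
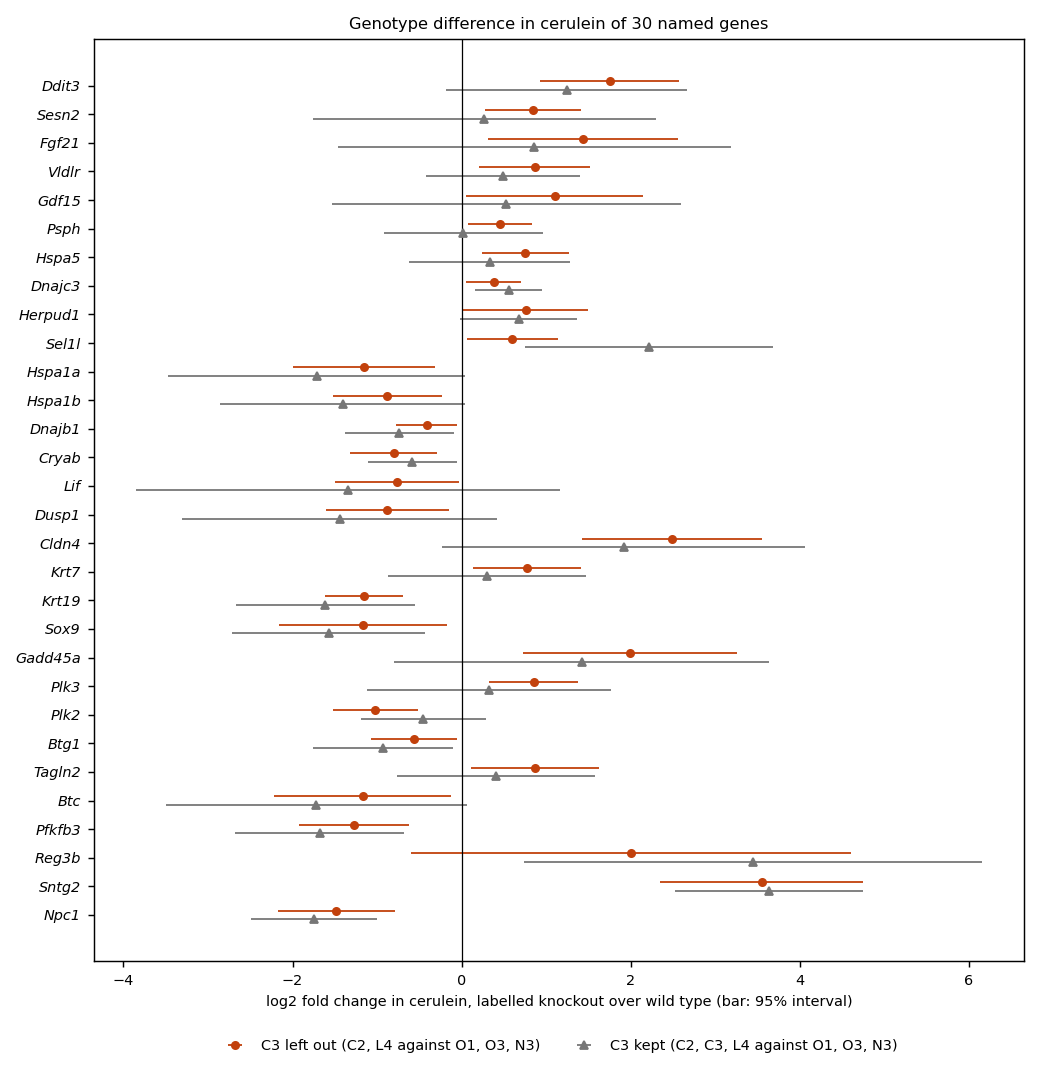
Log2 fold change in cerulein, labelled knockout over wild type, with its 95% interval, for 30 named genes, without C3 (orange circles) and with C3 (grey triangles). Keeping C3 widens most intervals, moves Sel1l from 0.60 to 2.22, and leaves Sntg2 and Npc1 little moved.

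The genes that DESeq2 called were mostly outside the injury lists. Those called both with and without C3 were Sntg2, Npc1, Ptpn4 and Abhd5. They were named after their values were seen. Sntg2, a syntrophin scaffold gene with the lowest p in both edgeR fits, was at 0.184, 0.0968 and 0.142 CPM in O1, O3 and N3. It was at 1.81 CPM in C2, 1.64 CPM in L4 and 2.06 CPM in C3, and at 0.453 to 1.70 CPM in the saline libraries. So the wild-type cerulein libraries were low, and all 3 labelled knockout cerulein libraries lay near the upper end of the saline range or above it. The difference was 3.55 ± 0.54 without C3 and 3.63 ± 0.50 with it (edgeR adjusted p = 0.733 and 0.235, DESeq2 adjusted p = 0.00111 and 3.01e-05).

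Npc1, the lysosomal cholesterol exporter gene, which overlaps Rmc1, was at 38.7, 48.2 and 22.5 CPM in wild type against 13.1, 6.47 and 12.9 CPM in C2, C3 and L4. Its saline level was 5.94 to 9.31 CPM, and the difference was -1.48 ± 0.31 without C3 and -1.75 ± 0.34 with it. Ptpn4, a tyrosine phosphatase gene, was at 28.6, 29.6 and 23.0 CPM against 13.5, 7.74 and 15.1 CPM (-0.92 ± 0.18 without C3). Abhd5, the coactivator of triglyceride lipase, was at 33.9, 46.8 and 32.7 CPM against 19.4, 14.7 and 22.2 CPM (-0.86 ± 0.19). In all 3 genes C2 and L4 lay between the saline and the wild-type cerulein libraries.

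Among the genes called without C3 alone, beside Krt19, Cldn4, Ddit3 and Plk2, were Gm8818, Pfkfb3, Lrig1 and Hamp2. Gm8818, a processed pseudogene, was listed at 0 counts in all saline libraries and in C3, at 21.2, 41.3 and 24.3 CPM in wild-type cerulein libraries and at 2.15 and 5.31 CPM in C2 and L4. Its reads may belong to the parent gene. Pfkfb3, a driver of glycolysis, was at 70.4, 106 and 86.1 CPM against 34.0 and 38.4 CPM (-1.27 ± 0.29). Lrig1, a brake on EGF receptors that overlaps Slc25a26, gave -0.99 ± 0.20, and the hepcidin gene Hamp2 gave -0.88 ± 0.20.

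With C3 kept alone, DESeq2 called Il22ra1, Klf15, Clec14a, Acot2, Gm12082, 1810008I18Rik and Cxcl9. Il22ra1, a subunit of the interleukin-22 receptor, was at 6.96, 6.15 and 8.85 CPM in wild type, 24.7 CPM in C2, 12.1 CPM in L4 and 30.2 CPM in C3. Its saline range was 27.0 to 53.9 CPM. Klf15, a metabolic transcription factor gene, was at 3.82 to 5.27 CPM in wild type, 11.3 and 7.50 CPM in C2 and L4, and 84.4 CPM in C3. The differences without C3 were 1.33 ± 0.36 and 1.11 ± 0.29, and with it 1.61 ± 0.36 and 2.98 ± 0.77. Clec14a, an endothelial surface gene, gave 1.11 ± 0.26 without C3 and 1.51 ± 0.32 with it. The acyl-CoA thioesterase gene Acot2 gave 1.73 ± 0.37 and 1.73 ± 0.33. The unnamed gene model Gm12082 gave 2.10 ± 0.53 and 3.50 ± 0.80, and 1810008I18Rik gave 0.97 ± 0.21 and 1.09 ± 0.21. Without C2 and C3, Il22ra1 was at 0.72, Acot2 at 1.12 and Gm12082 at 0.76 on the log2 scale. The chemokine gene Cxcl9 was at 16.5 CPM in N3 and 0.332 and 1.06 CPM in O1 and O3, against 0.113 to 0.281 CPM in the labelled knockout cerulein libraries.

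The difference between genotype labels in cerulein was set against that in saline, which shares no library with it. Of the 747 genes with an unadjusted p under 0.05 in cerulein without C3, 43.0% had the same sign in saline, beside 44.6% of all genes. An unadjusted p under 0.05 in both was held by 14 genes. Of the 14, 5 had the same sign: Atf3, Psph, Creb5, Thyn1 and Fam234a. These 5 are 0.669% of the cerulein list and 3.79% of the saline list. Creb5, a bZIP factor gene, was at 1.40, 1.40 and 1.24 CPM in wild-type cerulein libraries and 3.78 and 2.86 CPM in C2 and L4, with differences of 1.30 ± 0.28 in cerulein and 1.15 in saline. Thyn1, a nuclear protein gene, gave 0.90 ± 0.19 in cerulein and 0.55 in saline, and Fam234a gave 0.37 ± 0.16 and 0.41. Atf3 itself gave 1.35 ± 0.55 in cerulein and 2.17 in saline. The test of the cerulein difference minus the saline difference called 0 genes by edgeR. An unadjusted p under 0.05 was held by 508 of the 14733 genes tested, fewer than the 747 in cerulein. Among the 508 were Krt19 (-1.07, unadjusted p = 0.00281), Ddit3 (1.83, unadjusted p = 0.00521) and Cldn4 (2.12, unadjusted p = 0.0208), each with an edgeR adjusted p of 0.999. These genes were chosen for low p-values in cerulein. The test contains that same cerulein difference, so its p-values for them are not separate evidence.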

How the data were processed

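RNA was measured by sequencing whole mouse pancreas, 1 library per animal. The deposited files hold read counts per Ensembl gene as the authors made them, whole numbers with no normalization. Libraries were made with a stranded total RNA kit, per the labels' protocols. HTSeq, DESeq2 and the mm10 build are named per the submitters' processing notes. The aligner, annotation and strand setting of the counts were not given in the sources used here. Of 49585 genes per library, 49326 had an identifier in GENCODE M21 (GRCm38).

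Genes passing edgeR's filterByExpr on the 4 groups were scaled by TMM and fitted in a robust quasi-likelihood model with a mean per group (edgeR 4.0.16, R 4.3.3), over 12 libraries with C3 kept (14329 genes) or 11 without C3 (14733 genes). The biological coefficient of variation was 0.357 and 0.304. Tests were two-sided, and p-values were adjusted by Benjamini-Hochberg across every gene tested, at a threshold of 0.05. The standard error (SE) was taken as the log2 fold change over the root of the F statistic. CPM of a library used its TMM-scaled total over the genes tested with C3 kept. Group size was n = 3, or n = 2 for the labelled knockout cerulein group without C3. The p-values rest on the spread between animals, estimated over all groups with information shared across genes. The intervals cover that spread only.

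Genes were described in 30 lists (19 of injury genes, 8 of cell type markers, 3 of checks). The members and lists were chosen with earlier results of these data known. The text names Atf3, and from each list up to 4 members past the threshold or, where none passed, the 2 with the lowest unadjusted p without C3. Since no gene passed, list members at an unadjusted p under 0.05, DESeq2's calls and genes with a low p in both cerulein and saline were added after the values were seen. Some genes that these rules name are not reported here but stay in all tests and counts. Alternatives were DESeq2 1.42.0, limma-voom (limma 3.58.1) with and without sample quality weights, other scaling and filters, a fit without robust estimation, cerulein libraries only, each library left out and, added after seeing the data, the 9 libraries with Y-linked counts. The edgeR, limma and DESeq2 fits were tested on simulated data. Motifs and figures used Python 3.11.15, pandas 2.3.3 and matplotlib 3.10.9.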

Additional observations from a re-analysis of the deposited data

How the results depend on the processing

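No paired analysis was possible because the groups share no replicate codes. edgeR called 0 genes in cerulein under each alternative scaling, filter, fit and left-out library, as did limma-voom with and without sample quality weights, and DESeq2 was the exception, with 11 genes with C3 kept and 14 with C3 left out. The saline comparison and the test of the difference between cerulein and saline, without C3, had 0 calls by edgeR, and with C3 kept DESeq2 called 1 gene in the latter, Sntg2. The number of genes at an unadjusted p under 0.05 ran from 465 (cerulein libraries only) to 2252 (without L4) with C3 kept, and from 512 (cerulein libraries only) to 1051 (without C2) with C3 left out. The quality weight of C3 was 0.14, the lowest of the 12.

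Of the 95 genes examined without C3, 82 kept their sign under all alternatives that gave a value. The others turned under 1 or 2 alternatives each. Leaving out single libraries gave ranges of -5.51 to 2.72 for Cfd, -3.67 to 1.77 for Plin4, -1.85 to 0.32 for Cxcr2, -0.71 to 0.019 for G6pdx, -1.59 to 0.49 for Xist, -0.55 to 3.04 for Reg3b, -0.16 to 1.09 for Lifr, -0.0086 to 0.56 for Cpt2, -1.31 to 3.09 for Dusp4, -0.034 to 0.56 for Timp3, -0.47 to 2.94 for Chgb, -0.33 to 2.01 for Pdx1 and -0.36 to 1.81 for Meg3. With quality weights Cfd was 1.75 and Plin4 1.03. With C3 kept, limma-voom gave -0.73 for Atf3, -1.28 for Sesn2 and -0.90 for Fgf21, and leaving out single libraries gave -0.36 to 0.84 for Sesn2. The cause was not tested. With 2 libraries in a group, the precision rests on the spread of the other groups, and C3's label cannot be checked from these files beyond the values above.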

Other observations

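Because the line is congenic, the genes around Atf3 on chromosome 1 were read as a group. Within 5 Mb of Atf3, 47 genes were tested without C3, and 4 had an unadjusted p under 0.05 in cerulein, none of them past the adjusted test. Within 20 Mb the number was 11 of 171, beside 5.07% of all genes, and 3 had such a p in saline, beside 0.896%. No gene in the window had one in both. Prox1, a transcription factor gene of pancreas development, gave 1.32 ± 0.39 in cerulein (edgeR unadjusted p = 0.00624), and Lpgat1, a lysophospholipid acyltransferase gene, gave 0.89 in saline and -0.02 in cerulein.

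L4 held the most islet marker RNA, 12501 CPM against 1411 CPM in C2 and 1537 to 3846 CPM in wild-type cerulein libraries. Chgb, a granule protein gene of islet cells, was at 106 CPM in L4 and 9.90 CPM in C2, against 8.14 to 21.2 CPM in wild type. Pdx1, an islet and acinar transcription factor gene, was at 8.31 CPM in L4 and 1.62 CPM in C2. Markers of endothelium summed to 193 CPM in C2 and 227 CPM in L4, above the wild-type cerulein range of 164 to 187 CPM. The saline range was 168 to 199 CPM in wild type and 190 to 199 CPM in labelled knockout, so C2 lay within it. None of the 12 markers had an unadjusted p under 0.05 without C3. Their median was 0.31, and 0.16 without L4. Kdr, the VEGF receptor gene, gave 0.52 ± 0.24.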
